A study of Drosophila melanogaster with 7 samples.

Results

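The genes described here act at the 2 structures that hold and move chromosomes in germline cysts before meiosis. At the centromere they were cid, cal1, Cenp-C and Nlp, and at the nuclear envelope koi, klar, ball and Lam. They were taken by symbol from the gene-level table and made up 8 of its 13771 genes, and their 27 transcripts, of 29939 listed, were taken by gene identifier from the transcript-level table. RNA was sequenced from living, GFP-positive cells sorted from dissociated Drosophila melanogaster ovaries. The Atx2 KD group had 4 libraries from ovaries with a hairpin RNA against Atx2, the gene of the RNA-binding protein Ataxin-2. The Control KD group had 3 libraries from ovaries with a hairpin RNA against mCherry, a fluorescent protein of other organisms. Both groups carried the bamP-GFP reporter, which follows the promoter of the cyst differentiation gene bam, and in both the hairpin was driven by nos-GAL4::VP16, a driver active in germ cells. The labels number the replicates but do not say whether they came from separate flies or sorts, so p-values measure only the spread between these libraries.

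Each centromere is marked by nucleosomes in which the histone H3 variant CID, the fly CENP-A, takes the place of H3. CAL1 brings CID to the centromere, and CENP-C, which binds CID nucleosomes, links them to the kinetochore. In fly cysts homologous centromeres pair and cluster before meiosis, while nuclei move under the pull of microtubules. This force reaches the chromosomes through the LINC complex, in which a SUN protein of the inner nuclear membrane (Klaroid, from koi) binds a KASH protein of the outer membrane (Klarsicht, from klar).

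The libraries held 65262402 to 101809997 estimated counts, and 3 counts, the smallest amount taken as detectable, came to 0.0303 to 0.0465 CPM, depending on the library. CPM is the unit of the gene values below, a read count relative to the effective library size after TMM normalization. This floor covers counting error only. Atx2 itself was at 245, 211, 269 and 209 CPM in Atx2 KD replicates 1 to 4, against 391, 445 and 424 CPM in Control KD replicates 1 to 3. The germline gene vas was present at 337 to 441 CPM in Atx2 KD and 365 to 473 CPM in Control KD, and bam at 36.0 to 48.7 CPM in Atx2 KD and 32.2 to 35.5 CPM in Control KD. Markers of other cells were present too, and none of the marker lists had a member at 0 in every library. The summed level of 14 early germline genes was 3798 to 4614 CPM in Atx2 KD and 4778 to 5494 CPM in Control KD. Muscle markers summed to 852 to 1226 CPM in Atx2 KD and 488 to 779 CPM in Control KD. In both lists the groups did not overlap. The sums overlapped over all libraries for the other 5 lists, but each of the 7 lists differed in 1 direction in all 3 same-numbered pairs. They were 781 to 1287 CPM in Atx2 KD and 1115 to 1760 CPM in Control KD for 8 late germline genes. They were 1282 to 1545 CPM in Atx2 KD and 1023 to 1380 CPM in Control KD for 10 niche, escort and follicle cell genes. For 11 eggshell and yolk genes they were 3268 to 18937 CPM in Atx2 KD and 18091 to 36392 CPM in Control KD. Hemocyte genes, 5 in number, summed to 559.7, 680.2 and 190.4 CPM in Atx2 KD replicates 1 to 3 and 281.6 CPM in replicate 4, against 218, 226 and 61.9 CPM in Control KD replicates 1 to 3. The 13 genes of the heat shock list, many of which respond to warm handling, summed to 7157, 8115, 12934 and 12262 CPM in Atx2 KD replicates 1 to 4. In Control KD replicates 1 to 3 they summed to 8099, 9625 and 13162 CPM. On both sides the libraries numbered 1 and 2 lay below those with higher numbers, and the cause was not tested. The ratio of Atx2 KD to Control KD in the same-numbered pairs was 0.884, 0.843 and 0.983. Single markers passed the edgeR threshold introduced below in 5 lists, with 1 higher and 6 lower of 14 early germline genes, 3 lower of 8 late germline genes, 2 higher and 1 lower of 10 niche, escort and follicle genes, 5 lower of 11 eggshell and yolk genes, and 6 higher of 6 muscle genes. The higher early germline gene was bgcn, at 13.4 to 21.1 CPM in Atx2 KD and 4.52 to 9.62 CPM in Control KD. In the same list, bam was above every control in each Atx2 KD library without passing (edgeR adjusted p 0.102). The early germline genes thus did not all move with their sum. With the replicate number as a block, 10 of 11 eggshell and yolk genes and 7 of 8 late germline genes were lower. In that fit 4 of 5 hemocyte genes were higher and 4 of 13 heat shock genes were lower. It called 28.0% of all tested genes, 1448 higher and 1493 lower. In such bulk RNA, fewer cells of a type and less RNA per cell cannot be told apart, and the part of these markers in the results below was not tested, except where a value is given.

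None of the 8 genes passed the threshold of 0.05 (adjusted p, quasi-likelihood test of edgeR), while 1396 of 10514 tested genes did, or 13.3%. Of all tested genes 590 were higher in Atx2 KD (5.61%) and 806 were lower (7.67%), a split that became 811 higher and 600 lower under upper-quartile scaling. The fitted differences of the 8 genes were small. Their median log2 fold change was 0.03, beside 0.01 over all tested genes, and the median of its size was 0.03, beside 0.21. Taken one by one, the 95% intervals of the 8 lay between -0.37 and 0.45, so none reached past 0.45 in size. The largest difference in size among them was 0.21, and 5262 of the 10514 tested genes had one no larger. The tested genes include ones with far lower counts than the 8, and these comparisons were not matched for level. An unadjusted p under 0.05 was found for 1 of the 8, koi, against 30.6% of all tested genes. In CPM the groups were fully apart for 2 of the 8, cid and koi, both higher in Atx2 KD. Over all tested genes they were apart for 27.4%, with Atx2 KD above for 12.3%. Counts per library for the 8 genes ranged from 594 for cid to 94079 for klar, so all lay far above the detection floor.

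**Figure D1:**
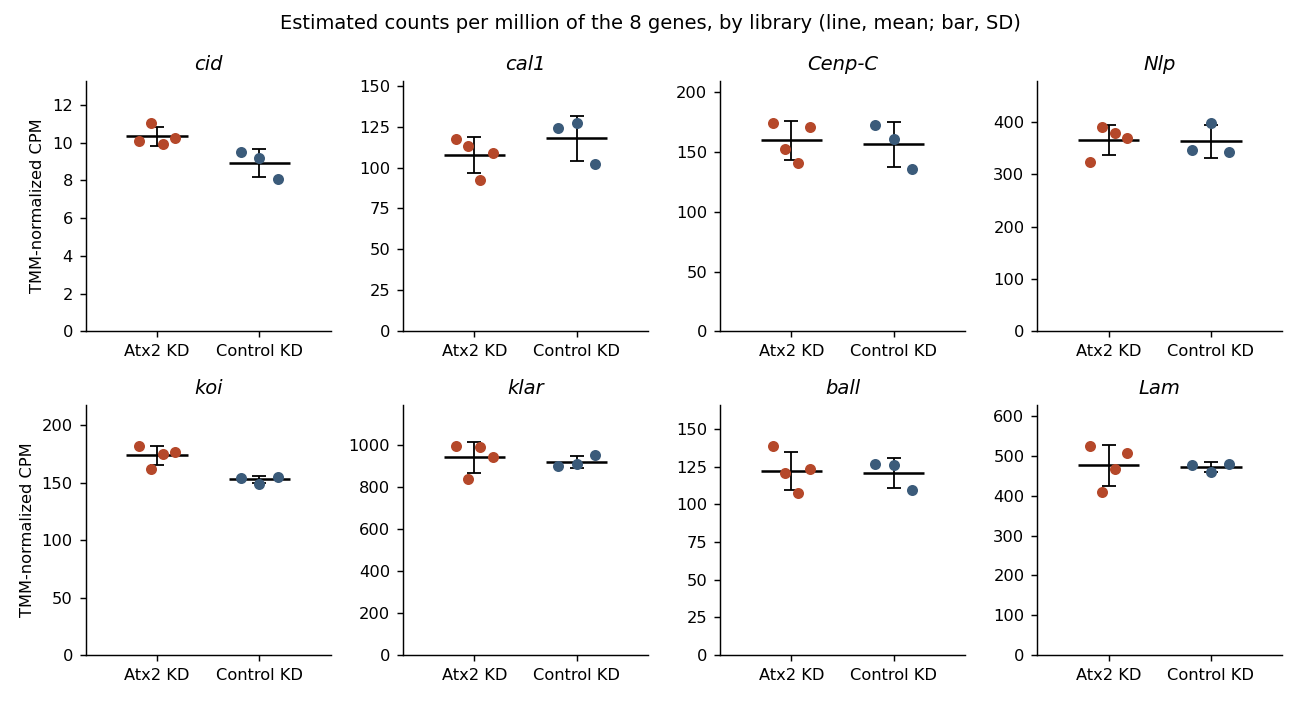
TMM-normalized CPM (vertical axes, each from 0) of the 8 genes in each library. Points are libraries, with 4 of Atx2 KD on the left and 3 of Control KD on the right of each panel. The horizontal line is the mean and the bar the SD. The points of the groups are apart for cid and koi and overlap for the other genes.

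At the centromere, the fitted values of the histone and its chaperone had opposite signs, but neither passed the test and both 95% intervals included 0. cid (FBgn0040477, arm 2R, 13485617 to 13486631, plus strand), which encodes CENP-A, was at 10.1, 11.1, 9.94 and 10.3 CPM in Atx2 KD replicates 1 to 4, against 9.49, 9.20 and 8.10 CPM in Control KD replicates 1 to 3. Every Atx2 KD library lay above every control, the lowest control being replicate 3. The means were 10.3 ± 0.497 CPM in Atx2 KD (SD, n = 4) and 8.93 ± 0.734 CPM in Control KD (SD, n = 3). The fit gave a log2 fold change of 0.21 ± 0.11 (SE; 95% interval -0.03 to 0.45) and an edgeR adjusted p of 0.214. Within the same-numbered pairs 1, 2 and 3 the log2 difference was 0.09, 0.27 and 0.29.

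cal1 (FBgn0038478, arm 3R, 17088280 to 17091938, plus strand), the gene of the CID loading factor, was at 117, 113, 92.2 and 109 CPM in Atx2 KD replicates 1 to 4, against 124, 127 and 102 CPM in Control KD replicates 1 to 3. The groups overlapped, and replicate 3 was the lowest of its group on both sides. The fitted log2 fold change of -0.13 ± 0.11 (SE; 95% interval -0.37 to 0.11) had an edgeR adjusted p of 0.458. Exons of cal1 share 406 bases with cher on the opposite strand. The libraries were made with a strand-directional kit, but whether strand was used in counting is not given in the sources used here. cher itself differed by 0.00 (log2), edgeR adjusted p 0.999.

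Cenp-C (FBgn0266916, arm 3R, 8564105 to 8569248, plus strand), the inner kinetochore gene, was at 175, 153, 141 and 171 CPM in Atx2 KD replicates 1 to 4, against 173, 161 and 136 CPM in Control KD replicates 1 to 3. The groups overlapped almost wholly. The fit put it at 0.03 ± 0.11 (log2 fold change and SE; 95% interval -0.21 to 0.27; edgeR adjusted p 0.881), and this sign turned in 6 of 19 alternatives. Nlp (FBgn0016685, arm 3R, 30004785 to 30010352, plus strand) encodes a nucleoplasmin-like histone chaperone that tethers centromere clusters at the nucleolus in cultured fly cells. It was at 323, 390, 379 and 370 CPM in Atx2 KD replicates 1 to 4, against 346, 399 and 344 CPM in Control KD replicates 1 to 3. The lowest library was Atx2 KD replicate 1 and the highest Control KD replicate 2. The fit put it at 0.01 ± 0.09 (log2 fold change and SE; 95% interval -0.19 to 0.21; edgeR adjusted p 0.950), and this sign turned in 5 of 19 alternatives. Its exons share 77 bases with Nph on the opposite strand, a gene at -0.11 (log2), edgeR adjusted p 0.540.

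At the nuclear envelope, koi came closest to the threshold. koi (FBgn0265003, arm 2R, 6811019 to 6818199, plus strand), the SUN protein gene, was at 182, 162, 176 and 177 CPM in Atx2 KD replicates 1 to 4, against 154, 149 and 155 CPM in Control KD replicates 1 to 3. All Atx2 KD libraries lay above all controls, with replicate 2 the lowest on both sides. The means were 174 ± 8.31 CPM in Atx2 KD (SD, n = 4) and 153 ± 3.24 CPM in Control KD (SD, n = 3), a fitted difference of 13.8% (95% interval 2.65 to 26.1%). On the log2 scale this was 0.19 ± 0.07 (SE), at an unadjusted edgeR p of 0.0194 and an adjusted p of 0.0938. DESeq2 called koi and no other of the 8, with an adjusted p of 0.0477 where it called 20.5% of all tested genes. After the mean of the early germline genes was subtracted from each library, limma also called koi alone of the 8 (adjusted p 0.0227), while it called 18.8% of all tested genes and their median rose by 0.28. The log2 difference of koi was then 0.46, or 0.17 above that median. The subtraction shifts every gene of a library equally, so by design this relative value stays close to that without subtraction. With the replicate number as a block, where edgeR called 28.0% of all tested genes, it called none of the 8, and koi was at an adjusted p of 0.0664. When the mean of the eggshell and yolk genes was a covariate, koi was at 0.05 (log2; adjusted p 0.796), where edgeR called 3.73% of all tested genes. This mean log2 CPM was 6.36 to 8.68 in Atx2 KD and 8.98 to 9.74 in Control KD, without overlap. That fit therefore cannot well separate the covariate from the group.

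klar (FBgn0001316, arm 3L, 434083 to 540614, minus strand), the KASH protein gene that partners koi, was at 991, 835, 988 and 941 CPM in Atx2 KD replicates 1 to 4, against 898, 907 and 950 CPM in Control KD replicates 1 to 3. Atx2 KD replicate 2 was the lowest library, and the controls lay within the range of the Atx2 KD libraries. The fit gave 0.03 ± 0.09 (log2 fold change and SE; 95% interval -0.16 to 0.23; edgeR adjusted p 0.841). A small non-coding RNA gene on the same strand overlaps klar exons over 64 bases.

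ball (FBgn0027889, arm 3R, 26864605 to 26866807, minus strand) encodes the kinase NHK-1, which phosphorylates histone H2A and the chromatin tether BAF and is needed for the oocyte karyosome. It was at 138, 120, 108 and 123 CPM in Atx2 KD replicates 1 to 4, against 126, 126 and 109 CPM in Control KD replicates 1 to 3. The groups overlapped, and replicate 3 was again the lowest on both sides. It was fitted at 0.02 ± 0.10 (log2 fold change and SE; 95% interval -0.20 to 0.24; edgeR adjusted p 0.915). Lam (FBgn0002525, arm 2L, 5542480 to 5546642, plus strand), the gene of the B-type lamin Dm0, was at 524, 409, 468 and 507 CPM in Atx2 KD replicates 1 to 4, against 478, 459 and 481 CPM in Control KD replicates 1 to 3. The 3 controls lay inside the wider range of the Atx2 KD libraries. It was fitted at 0.01 ± 0.09 (log2 fold change and SE; 95% interval -0.20 to 0.22; edgeR adjusted p 0.944). The sign turned in 3 of 19 alternatives for ball and in 6 for Lam.

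**Figure D2:**
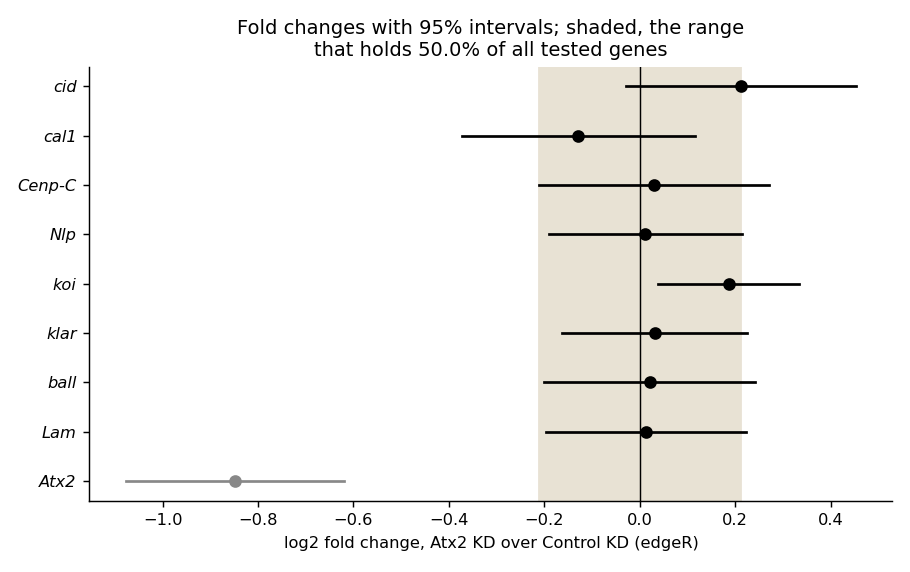
Log2 fold changes, Atx2 KD over Control KD, with 95% intervals from edgeR's quasi-likelihood fit, for the 8 genes (black) and the targeted gene Atx2 (grey). The shaded range reaches 0.21 to either side of 0 and holds 5262 of the 10514 tested genes. All 8 black points lie inside it, the interval of koi alone among the 8 stays above 0, and Atx2 lies at -0.85.

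Levels of different genes were compared in TPM, the deposited unit that is scaled for transcript length. The 8 genes spanned a wide range, with Nlp 40.4 times cid in the mean of Atx2 KD and 45.4 times in that of Control KD. cid was the lowest, at 16.6 ± 0.927 TPM in Atx2 KD and 14.1 ± 1.71 TPM in Control KD (SD, n = 4 and 3, here and below). Above it stood cal1 at 41.3 ± 5.15 TPM in Atx2 KD and 43.4 ± 4.96 TPM in Control KD. Cenp-C was beside it at 46.4 ± 6.55 TPM in Atx2 KD and 43.1 ± 5.88 TPM in Control KD. The ranges of cal1 and Cenp-C overlapped in both groups, and Cenp-C was the higher of the pair in 5 of 7 libraries. koi followed at 86.6 ± 9.21 TPM in Atx2 KD and 73.9 ± 4.41 TPM in Control KD, and ball at 86.6 ± 13.2 TPM in Atx2 KD and 82.9 ± 8.29 TPM in Control KD. Those overlapped as well, with ball the higher in 6 of 7 libraries. klar stood at 160 ± 21.0 TPM in Atx2 KD and 157 ± 10.6 TPM in Control KD, and Lam at 211 ± 35.5 TPM in Atx2 KD and 202 ± 14.9 TPM in Control KD. Their ranges overlapped in Atx2 KD and not in Control KD, and Lam was the higher in all 7 libraries. Nlp was the highest, at 671 ± 30.9 TPM in Atx2 KD and 640 ± 23.0 TPM in Control KD. All other neighbours in this order were apart in both groups. LamC, the A-type lamin gene, lay between ball and klar at 97.6 ± 4.26 TPM in Atx2 KD and 101 ± 11.3 TPM in Control KD.

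**Figure D3:**
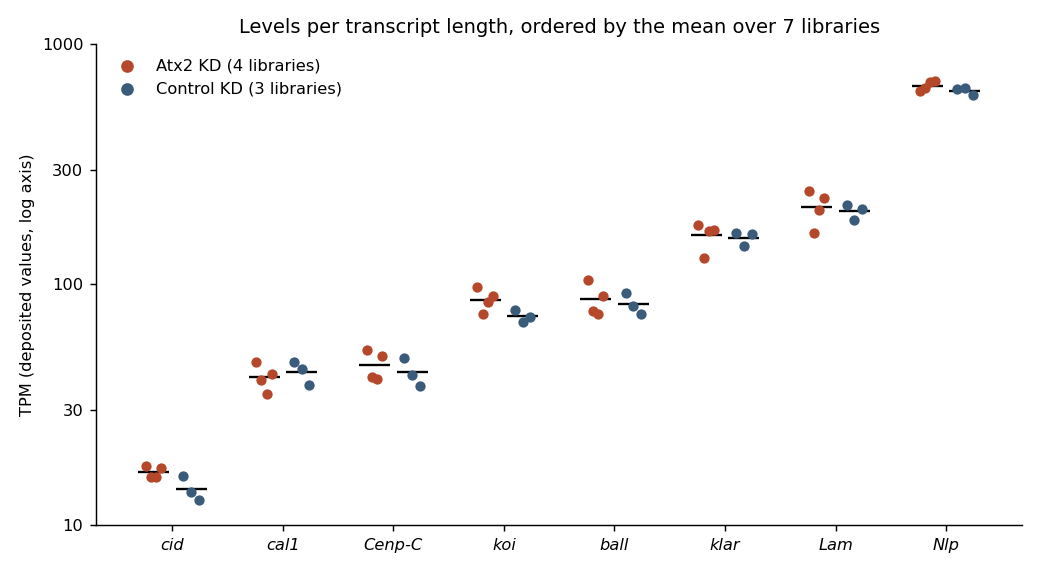
Deposited TPM (log axis) of the 8 genes, ordered by their mean over the 7 libraries. Points are libraries, Atx2 KD left of Control KD for each gene, and lines are means. cid lies lowest at 12.7 to 17.6 TPM and Nlp highest at 614 to 701 TPM, and the pairs cal1 with Cenp-C and koi with ball overlap.

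Ratios of gene levels within a library do not depend on how libraries are scaled, and 7 were compared by a two-sided exact permutation test, whose smallest possible p with 4 and 3 libraries is 0.0286. The chaperone stood lower relative to its histone in Atx2 KD, without passing after adjustment. The TPM ratio of cal1 to cid was 2.71, 2.53, 2.23 and 2.47 in Atx2 KD replicates 1 to 4, against 2.98, 3.26 and 3.00 in Control KD replicates 1 to 3. Every Atx2 KD library was below every control, and the log2 difference was -0.31, with an exact p of 0.0286 and 0.133 after adjustment over the 7 ratios. In the same-numbered pairs it was -0.14, -0.37 and -0.43. The CPM of cid alone was above every control in each Atx2 KD library, so this ratio is not independent of that difference. Cenp-C to cid differed by -0.14 (log2; exact p 0.171, adjusted 0.240) and Cenp-C to cal1 by 0.18 (exact p 0.0857, adjusted 0.150), and in both the groups overlapped. Nlp to cal1 differed by 0.14 (log2; exact p 0.371, adjusted 0.433).

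At the envelope, the groups did not overlap in 2 ratios. For these 2 and for cal1 to cid, the share of other gene pairs with ratios apart was not counted. Single genes were apart in CPM for 27.4% of all tested genes. The ratio of klar to koi was 1.81, 1.72, 1.98 and 1.88 in Atx2 KD replicates 1 to 4, against 2.08, 2.07 and 2.21 in Control KD replicates 1 to 3, with no overlap (log2 difference -0.20, exact p 0.0571, adjusted 0.133). The ratio of Lam to koi was 2.52, 2.17, 2.42 and 2.57 in Atx2 KD replicates 1 to 4, against 2.72, 2.65 and 2.81 in Control KD replicates 1 to 3, also with no overlap (-0.17, exact p 0.0571, adjusted 0.133). These 2 ratios share koi, whose CPM was above every control in each Atx2 KD library, and so are not independent of each other. The A-type to B-type lamin ratio, LamC to Lam, differed by -0.09 (log2; exact p 0.514, adjusted 0.514), with overlap. None of the 7 ratios passed after adjustment, which a single ratio at the smallest possible p could not do.

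The 27 transcripts were examined next, of which 24 passed the count filter. The 3 that did not were all of koi, and 2 of them were at 0 in every library. Salmon divides reads among overlapping transcripts by estimation, so the shares below are estimates. Of the 24, 1 passed the same edgeR threshold, or 4.17%, beside 4.71% of 21728 tested transcripts (2.05% higher), and 5 of the 24 had an unadjusted p under 0.05, beside 22.1% of all tested transcripts. DESeq2 called 3 of the 24, all of klar, and 14.5% of all tested transcripts.

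The called transcript was FBtr0110818 of klar, which was higher in Atx2 KD. It held 27.8, 27.8, 26.7 and 27.4% of klar's estimated counts in Atx2 KD replicates 1 to 4, against 21.3, 19.0 and 20.7% in Control KD replicates 1 to 3. The groups were far apart relative to their spread, with means of 27.4 ± 0.527% in Atx2 KD (SD, n = 4) and 20.3 ± 1.18% in Control KD (SD, n = 3). The log2 fold change of its count was 0.47 ± 0.08 (SE), edgeR adjusted p 0.0257, against 0.03 for the whole gene. DESeq2 gave it an adjusted p of 2.78e-06. The call did not hold without Atx2 KD replicate 1 (adjusted p 0.0551), replicate 3 (0.0761) or replicate 4 (0.0632), or without Control KD replicate 1 (0.0882) or replicate 2 (0.103). It was also lost in the libraries numbered 1 and 2 alone (0.216), while the log2 fold change stayed between 0.41 and 0.51 throughout.

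In the Ensembl annotation FBtr0110818 begins at 540614, like the most abundant transcript, FBtr0072565, and ends 216 bases further downstream, at 434083. It lacks an exon of 651 bases (arm 3L, 452838 to 453488) that 5 of the 9 klar transcripts hold in whole. All 651 bases are coding in FBtr0072565, while 399 of them are in FBtr0333851 and in FBtr0343526. The protein of FBtr0110818 has 2045 residues where that of FBtr0072565 has 2262. FBtr0072565 held 33.1 ± 1.97% in Atx2 KD and 35.4 ± 3.68% in Control KD, with overlap (log2 fold change of its count -0.06, edgeR adjusted p 0.787). FBtr0112807, a short transcript that begins at 441096 and encodes 567 residues, held 3.22 ± 0.429% in Atx2 KD and 5.08 ± 0.809% in Control KD. The groups did not overlap, and its count differed by -0.62 ± 0.14 (log2, SE), with an adjusted p of 0.0506 from edgeR and 0.00117 from DESeq2. The third transcript called by DESeq2, FBtr0333852, held 0.607 ± 0.0710% in Atx2 KD and 0.384 ± 0.0623% in Control KD (edgeR adjusted p 0.0969).

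**Figure D4:**
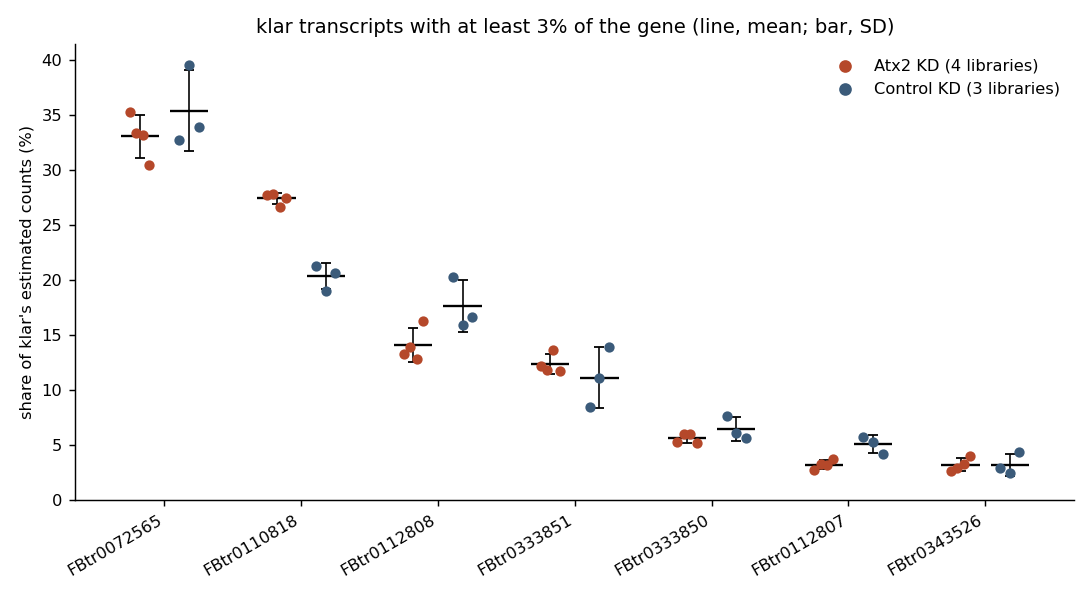
Share of klar's estimated counts (vertical axis, percent) held by each transcript with at least 3% of the gene in either group's mean. Points are libraries, Atx2 KD left of Control KD for each transcript, lines are means and bars SDs. FBtr0110818 lies at 26.7 to 27.8% in Atx2 KD and 19.0 to 21.3% in Control KD, FBtr0112807 is lower in every Atx2 KD library, and the other transcripts overlap.

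Klarsicht reaches the outer nuclear membrane through the KASH domain at its C-terminal end, and 2 of the 9 transcripts stop upstream of it, at 442878 in place of 435120. These were FBtr0112808 and FBtr0343526, with 1823 and 1197 residues. Together they held 15.9, 16.8, 16.1 and 20.4% of klar's estimated counts in Atx2 KD replicates 1 to 4, against 23.2, 18.3 and 21.0% in Control KD replicates 1 to 3. Replicate 4 of Atx2 KD lay among the controls, and the means differed by -3.56 percentage points (two-sided exact permutation p 0.114, 0.229 adjusted over 2 shares). Most of this was FBtr0112808, at 14.1 ± 1.56% in Atx2 KD and 17.6 ± 2.36% in Control KD. Of the others, FBtr0333851 held 12.3 ± 0.902% in Atx2 KD and 11.1 ± 2.74% in Control KD, and FBtr0333850 held 5.60 ± 0.456% in Atx2 KD and 6.45 ± 1.08% in Control KD. By start site, the 4 transcripts from 540614 together held 80.2 ± 1.35% in Atx2 KD and 79.8 ± 2.71% in Control KD.

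For koi, the SUN domain lies at the C-terminal end, and 3 of its 6 transcripts stop early, at 6814312 in place of 6817003. Almost all of their counts fell to FBtr0335515, which encodes 449 residues. The early-stopping transcripts held 46.3 ± 2.48% of koi's estimated counts in Atx2 KD (SD, n = 4) and 48.4 ± 4.41% in Control KD (SD, n = 3), with overlap. The difference was -2.11 percentage points (two-sided exact permutation p 0.486, 0.486 adjusted over 2 shares). Per length, as a share of the gene's TPM, they made up 65.5 ± 2.24% in Atx2 KD and 67.3 ± 3.87% in Control KD. The full protein of 965 residues is encoded by FBtr0335512, which held 51.2 ± 2.63% of the counts in Atx2 KD and 49.7 ± 4.33% in Control KD, and by FBtr0335514, which held 2.53 ± 0.599% in Atx2 KD and 1.85 ± 0.745% in Control KD.

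The remaining genes had a dominant transcript each. Lam was almost wholly FBtr0079100, with 96.5 ± 0.494% in Atx2 KD and 95.1 ± 1.83% in Control KD, and its 4 transcripts encode the same 622 residues. Nlp was mostly FBtr0334701, with 94.2 ± 0.732% in Atx2 KD and 94.8 ± 0.635% in Control KD, beside FBtr0085552 with 5.77 ± 0.732% in Atx2 KD and 5.22 ± 0.635% in Control KD. Both encode 152 residues and differ in their start. ball was mostly FBtr0085096, with 84.7 ± 3.29% in Atx2 KD and 88.9 ± 0.906% in Control KD. Its other transcript, FBtr0085095, starts upstream of it and held 15.9, 17.2, 10.4 and 17.5% in Atx2 KD replicates 1 to 4, against 11.8, 10.1 and 11.6% in Control KD replicates 1 to 3. Atx2 KD replicate 3 lay among the controls, and the log2 fold change of its count was 0.50 ± 0.24 (SE), edgeR adjusted p 0.267. Cenp-C was mostly FBtr0089973, with 83.4 ± 2.38% in Atx2 KD and 85.9 ± 3.88% in Control KD, and FBtr0339328, which lacks 36 coding bases and ends 193 bases earlier, held the rest. cid and cal1 have 1 transcript each.

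Unequal change among the transcripts of a gene was tested for the 6 members with at least 2 tested transcripts. On simulated data both tests used here made more false calls than the threshold allows, so a gene they called is uncertain. With diffSpliceDGE of edgeR, 0 of the 6 passed a Simes adjusted p of 0.05, beside 3.57% of 5103 genes. An unadjusted p under 0.05 was given to 2 of the 6, klar (p 0.0163, adjusted 0.256) and Lam (p 0.0400, adjusted 0.462), beside 9.48% of the 5103 genes. limma's diffSplice on voom-transformed counts called klar (adjusted p 0.0288) and 9.54% of the 5103 genes. Without Control KD replicate 3, diffSpliceDGE called Lam (adjusted p 0.0363) and 3.48% of 5234 genes.

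Genes that work with these 8 were taken from 6 lists of 70 genes, of which 69 were tested and 1, the testis SUN gene spag4, was at 0 in every library. Of the 69, 16 passed the edgeR threshold, or 23.2%, with 9 higher and 7 lower in Atx2 KD, beside 13.3% of all tested genes. The lists were chosen with earlier results of these data known, so this share cannot be read as enrichment. The median log2 fold change of the 69 was -0.01, beside 0.01 over all tested genes. The CPM ranges of the groups were apart for all 16, beside 27.4% of all tested genes. The 16 were picked by their edgeR call on the same libraries, so this separation adds little to that call. DESeq2 and the fit with the replicate block also called all 16, where they called 20.5% and 28.0% of all tested genes. These use the same 7 libraries and so are not independent of the edgeR call. The early germline sum was lower and the muscle sum higher in Atx2 KD, as given above. After subtraction of the early germline mean 23 of the 69 passed, 20 higher and 3 lower. Of all tested genes 1977 then passed, or 18.8%, with 1742 higher and 235 lower. The median of all genes had moved up by 0.28. rdx, bocks, nudE and egl, all lower in Atx2 KD, were then no longer called (limma adjusted p 0.134, 0.751, 0.0552 and 0.755). Relative to the median of all genes they stood at -0.57, -0.35, -0.63 and -0.34 (log2) after the subtraction, against -0.58, -0.34, -0.63 and -0.33 before it. The subtraction shifts every gene of a library equally, so these relative values could hardly change and show nothing about germline content.

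Among 10 centromere chromatin partners 1 rose and 1 fell, with a median log2 fold change of -0.01. With the replicate block 1 rose and 3 fell, where 28.0% of all tested genes were called. HP6, a relative of HP1 found at centromeres, was at 1.43, 1.81, 1.21 and 1.23 CPM in Atx2 KD replicates 1 to 4, against 0.462, 0.325 and 0.242 CPM in Control KD replicates 1 to 3. It was low in all libraries, and every Atx2 KD library was above every control (log2 fold change 2.05 ± 0.32 SE, edgeR adjusted p 0.00540). rdx, the Cul3 adaptor that acts with CAL1 in loading CID, fell to 208 ± 15.5 CPM in Atx2 KD (SD, n = 4), against 309 ± 44.0 CPM in Control KD (SD, n = 3), a log2 fold change of -0.57 ± 0.11 (SE; edgeR adjusted p 0.0108). The lowest control, replicate 3 at 258 CPM, was above the highest Atx2 KD library at 224 CPM. Cul3 itself was at -0.26 (log2, edgeR adjusted p 0.0588) and mod, the nucleolar partner of Nlp, at -0.05 (adjusted p 0.801).

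Of 8 kinetochore core genes, 2 rose and 0 fell, with a median of 0.16. Nnf1a, of the Mis12 complex, was at 17.5 ± 2.37 CPM in Atx2 KD and 11.6 ± 1.12 CPM in Control KD (log2 fold change 0.59 ± 0.13 SE, edgeR adjusted p 0.0196). Nuf2, of the Ndc80 complex, was at 18.9 ± 1.66 CPM in Atx2 KD and 14.1 ± 1.60 CPM in Control KD (0.43 ± 0.11 SE, edgeR adjusted p 0.0336). Of their complex partners, Mis12 was at -0.30 (adjusted p 0.162) and Ndc80 at 0.10 (adjusted p 0.513). Among 17 passenger and checkpoint genes 3 rose and 0 fell, with a median of -0.04. aurB, the Aurora B kinase of the chromosomal passenger complex, was at 40.0, 39.7, 36.8 and 35.04 CPM in Atx2 KD replicates 1 to 4, against 24.6, 23.3 and 22.2 CPM in Control KD replicates 1 to 3. The groups were well separated (log2 fold change 0.70 ± 0.08 SE, edgeR adjusted p 0.00117). cmet, a CENP-E kinesin, was at 0.31 ± 0.08 (log2, SE; edgeR adjusted p 0.0332) and the checkpoint gene Bub3 at 0.23 ± 0.07 (adjusted p 0.0485). Incenp, the scaffold that Aurora B binds, was at -0.11 (edgeR adjusted p 0.497).

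The 9 lamina and inner nuclear membrane genes held 3 that rose and 2 that fell, with a median of 0.14. baf encodes the DNA-bridging protein that the ball kinase phosphorylates. It was at 38.9, 45.4, 41.2 and 38.1 CPM in Atx2 KD replicates 1 to 4, against 26.4, 28.3 and 23.1 CPM in Control KD replicates 1 to 3. All Atx2 KD libraries were above all controls (log2 fold change 0.66 ± 0.09 SE, edgeR adjusted p 0.00352). Of the LEM-domain genes, Ote was at 0.31 ± 0.08 (log2, SE; edgeR adjusted p 0.0288), bocks at -0.33 ± 0.07 (adjusted p 0.0199) and MAN1 at -0.10 (adjusted p 0.445). Torsin, an ATPase of the nuclear envelope, was at 0.28 ± 0.08 (adjusted p 0.0442). fs(1)Ya, a maternal lamina gene, fell to 50.6 ± 7.97 CPM in Atx2 KD, against 97.3 ± 15.1 CPM in Control KD, a log2 fold change of -0.94 ± 0.14 (SE; edgeR adjusted p 0.00456).

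Among 18 LINC partners and subunits of dynein and dynactin 0 rose and 2 fell, with a median of -0.03. With the replicate block 3 rose and 3 fell, where 28.0% of all tested genes were called. nudE, a dynein regulator, was at 104 ± 6.63 CPM in Atx2 KD and 161 ± 16.4 CPM in Control KD (log2 fold change -0.63 ± 0.09 SE, edgeR adjusted p 0.00328). egl, which links RNA cargo and BicD to dynein, was at 219 ± 5.18 CPM in Atx2 KD and 275 ± 17.3 CPM in Control KD (-0.33 ± 0.07 SE, adjusted p 0.0162). Dhc64C, the dynein heavy chain, was at 0.31 (edgeR adjusted p 0.150), and Msp300, the other KASH gene, at 0.25 (adjusted p 0.308). mud, a dynein partner in spindle orientation, was at 0.13 (adjusted p 0.403). Of 7 pairing and karyosome regulators 0 rose and 2 fell, with a median of -0.12. mtrm, an inhibitor of Polo kinase in the oocyte, was at 23.6, 31.7, 18.7 and 24.9 CPM in Atx2 KD replicates 1 to 4, against 58.6, 58.8 and 41.5 CPM in Control KD replicates 1 to 3 (log2 fold change -1.10 ± 0.18 SE, edgeR adjusted p 0.00610). Cap-H2, the condensin II subunit that counters pairing of homologs in fly cells, was at 83.8, 77.4, 75.5 and 81.1 CPM in Atx2 KD replicates 1 to 4, against 141, 142 and 108 CPM in Control KD replicates 1 to 3 (-0.72 ± 0.10 SE, adjusted p 0.00352). In both genes Control KD replicate 3 lay nearest to the Atx2 KD libraries. Top2 was at -0.12 (adjusted p 0.339), and slmb, whose product marks Cap-H2 for degradation, at 0.00 (adjusted p 0.986).

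**Figure D5:**
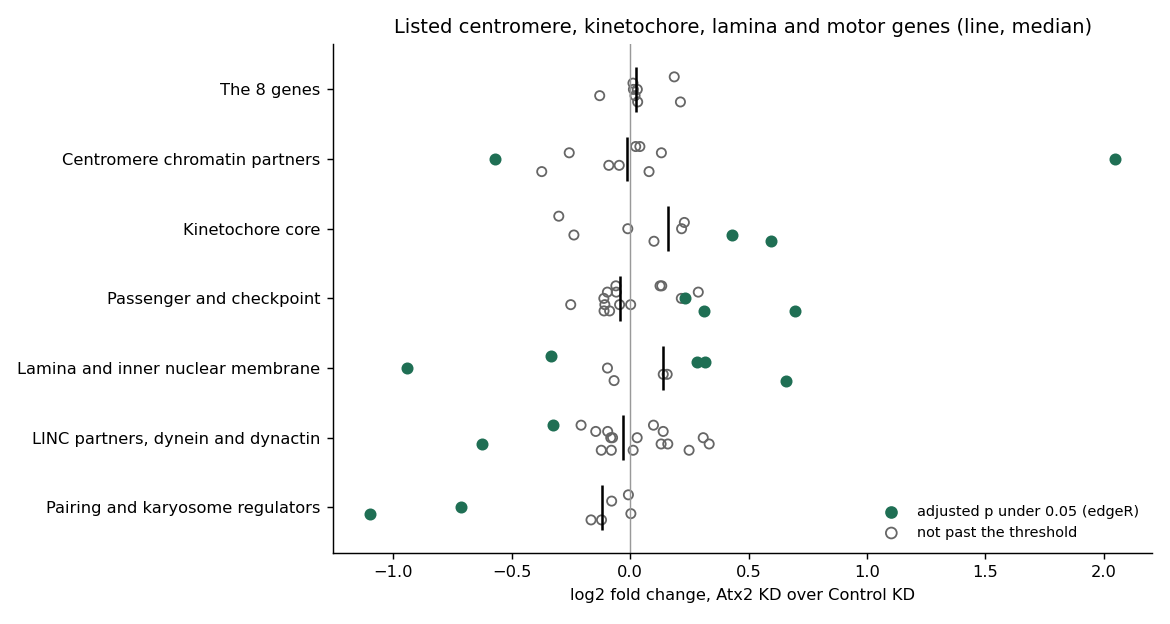
Log2 fold changes, Atx2 KD over Control KD (horizontal axis), of the 8 genes and of the 69 tested genes in the 6 lists. Filled points passed an edgeR adjusted p of 0.05, open points did not, and vertical lines are medians. The 8 genes lie between -0.13 and 0.21 with no filled point, and 16 listed genes are filled.

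Of the 16 called genes, aurB, baf, HP6, fs(1)Ya, nudE, Cap-H2 and mtrm stayed past the threshold whichever library was left out, and 9 did not. Without Control KD replicate 1, and also without Control KD replicate 2, the 9 lost were rdx, Nuf2, Nnf1a, Bub3, cmet, Ote, bocks, Torsin and egl, with edgeR adjusted p of 0.0525 to 0.164 and 0.0509 to 0.161. Without Atx2 KD replicate 4, 7 of these were lost (all but rdx and egl), with adjusted p of 0.0516 to 0.110. Leaving out Atx2 KD replicate 1 lost 5 (Nuf2, Bub3, cmet, Ote and Torsin, 0.0514 to 0.0768), and Atx2 KD replicate 2 lost 4 (Nuf2, Bub3, Ote and Torsin, 0.0501 to 0.0724). Atx2 KD replicate 3 cost 4 (Bub3, cmet, Torsin and egl, 0.0529 to 0.0806), and Control KD replicate 3 cost 4 (Nuf2, Bub3, cmet and Ote, 0.0657 to 0.0800). When the mean of the eggshell and yolk genes was a covariate, 3 of the 69 were called (aurB and baf higher, Cap-H2 lower). It was 3.73% of all tested genes, as given above. Since the covariate was apart between the groups, the fit cannot well separate it from the group. Of the 13 calls lost, HP6 was at 2.14, Nnf1a at 0.63, Bub3 at 0.23, nudE at -0.69, egl at -0.33 and rdx at -0.49 (log2) in that fit, and cmet at 0.11, against 0.31 without the covariate.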

How the data were processed

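Ovaries were dissociated with collagenase and elastase at 37 °C, per the labels' protocols, live cells were sorted with propidium iodide, and directional libraries were made from total RNA after depletion of ribosomal RNA, without poly(A) selection. The submitters' processing notes name bcl2fastq 2.20, Trim Galore 0.6.7, cutadapt 2.10 and Salmon 1.9.0, and the index, genome build and annotation are not given in the sources used here. The deposited estimated counts of the authors are not normalized, per the labels, and their deposited TPM values are scaled for length within each library. Positions and transcript structures are those of Ensembl release 115 (BDGP6.54), matched by identifier.

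Estimated counts were rounded, filtered with filterByExpr (minimum count 10, minimum total 15), scaled by TMM and tested with edgeR 4.0.16 (two-sided quasi-likelihood test, R 4.3.3), the group being the single model term, and p-values were adjusted by Benjamini-Hochberg over all tested features. Intervals are the log2 fold change and its SE with the fit's total degrees of freedom, residual plus prior. The SE is the size of the log2 fold change divided by the square root of the F statistic. Alternatives used DESeq2 1.42.0, limma 3.58.1, other scalings, filters and pseudocounts (1 and 0.1), and each library left out. Fits were checked on simulated data, where gene and transcript calls kept close to the set false call rate, small changes were often missed, above all in transcripts, and the tests of unequal change among transcripts made too many false calls. All 7 libraries entered, and pairs within a group differed by a chi-square per degree of freedom of 45.6 to 236, so each counted as 1 replicate.

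Same-numbered libraries deviated together (Pearson r across genes of 0.146, 0.336 and 0.519 for numbers 1, 2 and 3, although Atx2 KD replicate 2 with Control KD replicate 1 also reached 0.157), so the replicate number was also fitted as a block. This pairing comes from the data, not from the labels. Atx2 KD replicate 4 has no Control KD library of its number, so in the blocked fit it adds nothing to the group difference. The 8 genes, the lists and the tests were chosen with earlier results of these data known. Named were the 8 genes, Atx2, member transcripts with at least 5% of their gene or a passed test, and listed genes that passed, with at most 3 others per list. FBtr0112807 and FBtr0333852 were kept in as DESeq2 calls, and the grouping by stop codon and by start site was chosen after the values were seen.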

Additional observations from a re-analysis of the deposited data

How the results depend on the processing

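Of the 8 genes, 0 passed in 17 of 19 alternatives and 1, koi, passed with DESeq2 and after subtraction of the early germline mean. Over all tested genes 1396 calls became 2151 with DESeq2, 2941 with the replicate block, 627 in the libraries numbered 1 and 2, 347 in those numbered 3 and 4 and 392 with the eggshell and yolk covariate, and ranged from 467 to 1454 when 1 library was left out. The 16 calls in the lists became 9, 4 and 3 in the libraries numbered 1 and 2, in those numbered 3 and 4 and with that covariate, and ranged from 7 to 16 when 1 library was left out. The 1 member transcript called became 2 with DESeq2 size factors, upper-quartile scaling or the stricter filter, 3 with DESeq2 and 0 in the libraries numbered 1 and 2, and ranged from 0 to 2 when 1 library was left out. The usage count was 0, and 1 with limma's diffSplice; it ranged from 0 to 1 when 1 library was left out. The cause of these shifts was not tested.

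Signs turned for 6 of the 8 genes, and not for cid or koi. cal1 was at 0.14 (log2) after the germline subtraction and at -0.14 relative to the median of all genes. That subtraction shifts every gene of a library equally, so the relative value could hardly change. With the eggshell and yolk covariate, itself apart between the groups, Cenp-C was at -0.19, klar at -0.14, ball at -0.16 and Lam at -0.28. In the libraries numbered 1 and 2 Cenp-C was at -0.034, Nlp at -0.067 and Lam at -0.011. With the replicate block Cenp-C was at -0.0036 and Lam at -0.024. Leaving out 1 library gave -0.064 to 0.113 for Cenp-C, -0.027 to 0.083 for Nlp, -0.047 to 0.078 for ball and -0.031 to 0.081 for Lam. The replicate block changed no other call of the 8 genes, their transcripts or their usage. The 7 ratios between genes and both stop codon shares kept their direction in every alternative. Their p says little there, since the smallest exact p is 0.0667 or 0.1 with 1 library left out and 0.25 within pairs. The unadjusted p of cal1 to cid, 0.0286, was 0.0571 or more in each alternative with a test, and that of klar to koi, 0.0571, was 0.0286 with CPM ratios. The libraries numbered 3 and 4 alone were tried after the data had been seen, and with 1 Control KD library its spread is assumed to equal that of the Atx2 KD libraries. With 4 and 3 libraries the SE of the 8 genes was 0.07 to 0.11 (log2), which limits the differences that could be detected.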
